A study of Mus musculus with 4 samples.

Results

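The 10 genes described here code for the actin machinery that runs from the small GTPase CDC42 to the branched actin network and back to free actin. They were taken by name, Cdc42, Rac2, Rhoh, Was, Wipf1, Arpc2, Arpc5, Coro1a, Cfl1 and Gsn, and all 10 were found in both mRNA matrices among 32285 genes. Their mRNA was followed across 5 B-cell states, both cell sorts and both groups of recipient mice. A list of 80 other actin genes served as the surrounding pathway.

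All transferred B cells were MD4 cells, which carry a transgenic antigen receptor for hen egg lysozyme (HEL). CD45.1+ Dock8 wt/wt MD4 cells were mixed with CD45.2+ MD4 cells of Dock8 wt/wt or of Dock8 cpm/cpm genotype, the latter an allele the study treats as null. These CD45.2+ cells also carried BCL2.Tg, a BCL2 transgene restricted to B cells. The mixtures went into CD45.1+ wild-type recipients, which were young adult, age-matched mice immunized with HEL coupled to sheep red blood cells (SRBC-HEL). Splenic HEL+ CD95+ cells of 6 recipients, 3 per group, were taken on day 8, marked with 1 hashtag antibody per mouse, pooled and sorted into CD45.1+ and CD45.2+ cells. Each sort made 1 mRNA library, so sort, BCL2 transgene and library coincide and cannot be told apart. The study's supplement gives male donors for the wild-type cells and female donors for the Dock8 cpm/cpm cells, so genotype and donor sex cannot be told apart for any gene, the X-linked Was included. The groups are called wt and cpm recipients below.

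DOCK8 is an exchange factor that loads CDC42 with GTP. Active CDC42 opens the Wiskott-Aldrich syndrome protein WASP (Was), which is kept stable by its partner WIP (Wipf1) and switches on the Arp2/3 complex, the nucleator of branched actin. Cofilin (Cfl1), coronin 1A (Coro1a) and gelsolin (Gsn) sever, remodel or take apart the filaments, and in B cells this cycle shapes migration, the immune synapse and antigen uptake.

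Hashtags assigned 6488 CD45.2+ and 3204 CD45.1+ cells to a single mouse after filtering. For the CD45.2+ sort that is fewer cells than the study's methods give. Cells called with several hashtags, 7951 of 14439 in the CD45.2+ library, were removed, and both libraries shared 21 barcodes. This rule left 202 CD45.2+ cells of cpm recipients, where other hashtag rules left 870 and 915, so the removed cells are not a count of doublets. Cells per mouse ranged from 339 to 947 in the CD45.1+ sort, from 1672 to 2607 in the CD45.2+ sort of wt recipients and from 44 to 101 in that of cpm recipients. Clusters were named from fixed markers after the 10 genes and the pathway list had been left out of the clustering, and values are unique molecular identifier (UMI) counts summed over the cells of 1 mouse, sort and state and scaled to a common total (CPM), for sums of at least 10 cells. In the CD45.2+ sort of cpm recipients under this hashtag assignment all 3 mice reached 10 cells only in the dark zone-like and naive-like states, and 1 mouse did in the light zone-like state. Plasma-like cells spent a median of 36.9% (CD45.1+) and 36.3% (CD45.2+ of wt recipients) of their counts on immunoglobulin genes, against 2.09% to 3.85% in the other 4 states. T cell markers of the list summed to between 0 and 160.6 CPM in the B-cell states of the CD45.1+ sort, and Il7r was at 0 in each of these states. Lck, on that list, also stood among the leading genes of a light zone-like cluster, so these sums do not measure T cells alone.

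RefSeq start sites of 9 of the 10 genes matched by symbol, with 14 windows from 250 bases before to 50 bases after a start on GRCm38.p6. Rac2 had no entry. The letters CGGAAGT, the core of an ETS-type motif, stood on either strand in 4 of the 14 windows, belonging to Arpc2, Wipf1, Cdc42 and Was, against 6.42% of all 32851 windows. The motif was chosen after these sequences had been read, it overlaps no other motif searched, and a match is a description of letters only. The window of Arpc5, also a subunit of the Arp2/3 complex, and the other windows of Wipf1 held no match. The 4 sequences were picked for their match and not for the place of their genes in the pathway. Each runs from 130 bases before to 20 bases after the start, 5′ to 3′, with the motif or its reverse complement in capitals:
Cdc42, chr4:137357740-137357889, minus strand: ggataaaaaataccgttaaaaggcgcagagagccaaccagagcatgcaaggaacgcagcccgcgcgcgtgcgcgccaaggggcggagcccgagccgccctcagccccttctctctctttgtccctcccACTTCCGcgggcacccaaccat
Was, chrX:8090472-8090621, minus strand: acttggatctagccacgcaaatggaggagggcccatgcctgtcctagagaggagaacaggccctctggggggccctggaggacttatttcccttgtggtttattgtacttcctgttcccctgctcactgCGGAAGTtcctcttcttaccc
Wipf1, chr2:73529468-73529617, minus strand: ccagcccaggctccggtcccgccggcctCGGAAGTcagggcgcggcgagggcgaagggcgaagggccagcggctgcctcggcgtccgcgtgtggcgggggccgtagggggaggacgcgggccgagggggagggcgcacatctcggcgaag
Arpc2, chr1:74236387-74236536, plus strand: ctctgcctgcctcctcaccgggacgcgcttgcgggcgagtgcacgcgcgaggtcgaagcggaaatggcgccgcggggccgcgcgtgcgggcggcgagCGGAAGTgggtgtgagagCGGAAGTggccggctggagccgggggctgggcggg
Arpc2 carried 2 matches and the other 3 genes 1 each. Those of Cdc42 and Was lay across the start itself.

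The first question was how the machinery is distributed over B-cell states. The states are clusters of the same cells, so levels are described over mice without a test. Plasma-like cells had the lowest mean of all 5 states for each of the 10 genes in both sorts. In the CD45.1+ sort (n = 6 mice) every mouse's plasma-like value lay below every value of the other 4 states for 9 genes, all but Cdc42, where 30.8% of 2488 genes at a mean of 50 CPM or more did so. In the CD45.2+ sort of wt recipients (n = 3) this held for all 10, against 51.2% of 2495 genes. Because immunoglobulin mRNA fills so much of the plasma-like counts, CPM were recomputed outside immunoglobulin genes, which left 8 genes below every other state in CD45.1+ cells (14.2% of all genes; Arpc2 no longer so) and all 10 in CD45.2+ cells (17.7%).

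**Figure D1:**
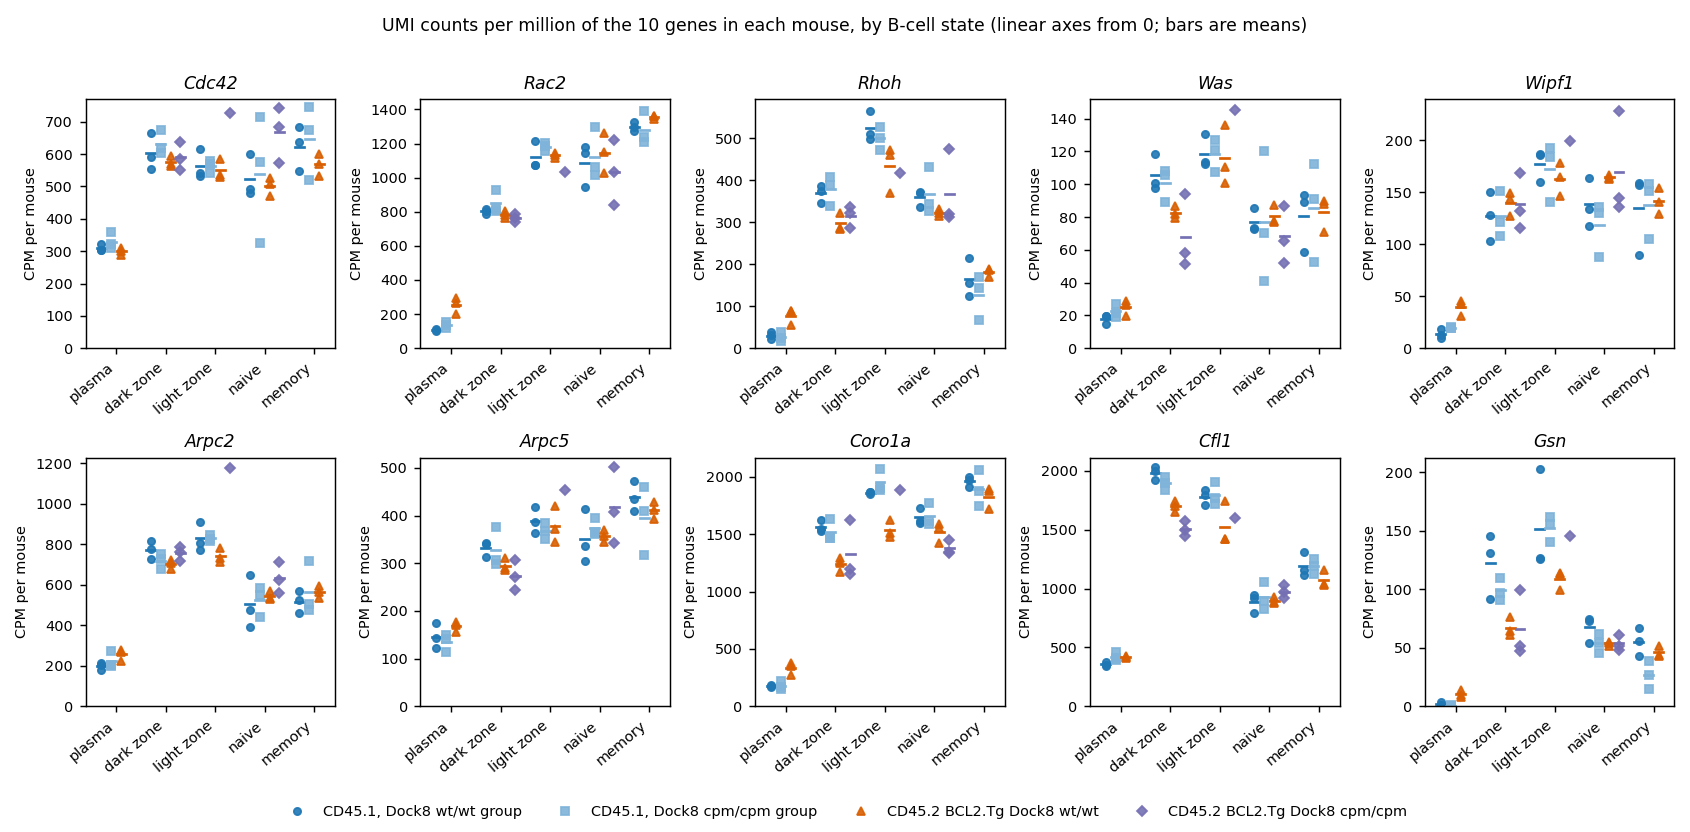
CPM of each of the 10 genes in every mouse with at least 10 cells, by B-cell state on linear axes from 0, with bars at group means and colours for sort and recipient group. Plasma-like means are lowest for every gene, with single values overlapping another state for Cdc42 in CD45.1+ cells, while Cfl1 is highest in the dark zone-like state and Rhoh and Gsn in the light zone-like state.

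Among the GTPases, Cdc42 (ENSMUSG00000006699, chr4:137319696-137357720, minus strand, GRCm38), the switch that DOCK8 activates, varied least. Its CD45.1+ plasma-like values ran from 303 to 358 CPM with a median of 315, and its light zone-like values from 533.5 to 617 with a median of 556. In the CD45.2+ cells of wt recipients it stood at 288, 301 and 309.5 CPM in plasma-like and at 531, 534 and 585 CPM in light zone-like cells. In the CD45.1+ sort the dark zone, light zone, naive-like and memory-like values overlapped one another, and naive-like values, from 326 to 713 CPM, also overlapped the plasma-like ones. In the CD45.2+ sort the naive-like values, 470, 508 and 525 CPM, lay above the plasma-like and below all others, and the other 3 states overlapped. Outside immunoglobulin genes the log2 ratio of plasma-like to light zone-like means of Cdc42 went from -0.82 to -0.20 in CD45.1+ and from -0.88 to -0.27 in CD45.2+ cells.

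Rac2 (ENSMUSG00000033220, chr15:78559167-78572783, minus strand), the Rac GTPase of blood cells, had another order of states. In CD45.1+ cells its means were 122 ± 19.5 (SD, n = 6) in plasma-like, 826 ± 52.1 in dark zone-like, 1106 ± 126 in naive-like, 1151 ± 62.6 in light zone-like and 1289 ± 65.5 CPM in memory-like cells. Values of naive-like, light zone-like and memory-like cells overlapped with their neighbours in that order, whereas those of plasma-like and of dark zone-like cells stood apart from all others. Rhoh (ENSMUSG00000029204, chr5:65861213-65896700, plus strand) codes for a GTPase of blood cells that does not cleave GTP. It was highest in light zone-like cells, from 472 to 564 CPM with a median of 504 in CD45.1+ and at 368, 461 and 472 CPM in CD45.2+ cells of wt recipients. Memory-like cells were low, 67.8 to 214 CPM with a median of 149 in CD45.1+ cells, and only dark zone-like and naive-like values overlapped in its order of states.

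Was (ENSMUSG00000031165, chrX:8081453-8090498, minus strand) and Wipf1 (ENSMUSG00000075284, chr2:73429610-73529734, minus strand) make the WASP-WIP pair. Was averaged 20.2 ± 3.93 CPM in plasma-like and 119 ± 9.04 CPM in light zone-like CD45.1+ cells (n = 6), and 25.0 ± 4.97 and 116 ± 18.4 CPM in CD45.2+ cells of wt recipients (n = 3). Wipf1 averaged 16.7 ± 4.24 and 175 ± 20.4 CPM in the same CD45.1+ states, and 39.5 ± 7.86 and 163 ± 16.1 CPM in CD45.2+ cells. For both genes the 4 states other than plasma-like overlapped in CD45.1+ cells. In CD45.2+ cells of wt recipients the light zone-like values of Was, 101, 111 and 136 CPM, lay above all its other values.

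Arpc2 (ENSMUSG00000006304, chr1:74236084-74268209, plus strand) and Arpc5 (ENSMUSG00000008475, chr1:152766542-152775597, plus strand) code for subunits of the Arp2/3 complex and differed in their order of states. Arpc2 was highest in the light zone-like state, at 831 ± 46.1 CPM, with 747 ± 47.6 in dark zone-like, 541 ± 93.4 in memory-like, 515 ± 96.3 in naive-like and 211 ± 31.3 CPM in plasma-like CD45.1+ cells (n = 6). Arpc5 had its highest mean in memory-like cells, 417 ± 55.4 CPM, and 378 ± 23.1, 363 ± 39.4, 329 ± 28.7 and 140 ± 21.7 CPM in light zone-like, naive-like, dark zone-like and plasma-like cells. The 4 states above plasma-like overlapped for Arpc5, while dark zone-like and memory-like values of Arpc2 overlapped by 1 mouse, whose memory-like value was 716 CPM.

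Of the 3 genes that act on existing filaments, Cfl1 (ENSMUSG00000056201, chr19:5490455-5495201, plus strand) and Gsn (ENSMUSG00000026879, chr2:35256380-35307892, plus strand) were the ones higher in both germinal centre states than in naive-like and memory-like cells. Cfl1 ran from 1839 to 2029 CPM (median 1934) in dark zone-like, from 1713 to 1903 (median 1780) in light zone-like, from 1113 to 1308 in memory-like, from 796 to 1058 in naive-like and from 341 to 460 CPM in plasma-like CD45.1+ cells. Gsn ran from 126 to 202 CPM (median 148) in light zone-like and from 90.9 to 146 (median 103) in dark zone-like cells, and in plasma-like cells it gave 12 counts over all 6 mice, with none in 2 of them. No germinal centre value of Cfl1 or Gsn overlapped a naive-like or memory-like one in either sort, a pattern of 11% of genes in CD45.1+ and, with Arpc2 as a further gene, 31.7% in CD45.2+ cells of wt recipients.

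Coro1a (ENSMUSG00000030707, chr7:126699773-126707787, minus strand), the coronin of leukocytes, shared the order of Rac2. It averaged 177 ± 24.4 CPM in plasma-like, 1544 ± 71.4 in dark zone-like, 1653 ± 76.9 in naive-like, 1909 ± 82.0 in light zone-like and 1928 ± 110 CPM in memory-like CD45.1+ cells (n = 6). The log2 ratio of its plasma-like to light zone-like means was -3.43, while that of Gsn, at -6.84, rested on the 12 plasma-like counts.

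Between both germinal centre states, light zone-like values lay above every dark zone-like value for Coro1a, Rhoh and Rac2 in CD45.1+ cells, 3 of 10 genes against 17.3% of all genes. In CD45.2+ cells of wt recipients Was, Arpc5 and Gsn joined them, 6 of 10 against 35.3%. No gene of the 10 lay wholly below its dark zone-like values in either sort, where 23.4% and 36.2% of all genes did. These counts depended on the clustering and hashtag rule in CD45.2+ cells, where 2 genes lay above at resolution 0.6 and 3 with pathway genes in the clustering, and 1 to 3 genes lay below under 6 of the alternatives that kept all mice. In CD45.1+ cells they stayed at 3 and 0 under these alternatives. Cfl1, Gsn and Rhoh stand in light zone gene lists that the study drew from these same cells, so their order is not independent evidence. The light zone-like state was held by different clusters in both sorts, cluster 8 with 982 CD45.1+ and 287 CD45.2+ cells and cluster 7 with 30 and 309. Cluster 7 had Snx29, Trim7, Zfp608 and Lrrk2 among its leading genes. A cluster with these genes was named light zone-like at resolution 1.5. It was named naive-like under both other hashtag rules and with pathway genes in the clustering. In CD45.2+ cells of cluster 7 naive markers reached sums as high as light zone markers, as given below. The CD45.2+ light zone-like levels thus rest in part on the naming of cluster 7.

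Plasma-like cells were not uniform. In the CD45.1+ sort Cfl1 ran from 499.6 to 581 CPM in cluster 10 (5 mice), whose 18 dark zone markers summed to between 4921 and 5940 CPM, and from 279 to 328 CPM in cluster 6 (6 mice), where the same markers summed to between 268 and 548 CPM. Cdc42 ran from 355 to 430 CPM in cluster 10 and from 276 to 315 CPM in cluster 6. The values of both clusters did not overlap for either gene.

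The surrounding pathway followed the same outline. Of the 80 listed genes 55 reached a mean of 50 CPM, and 50 of these (90.9%) had their lowest state mean in plasma-like cells, against 62.3% of 2498 genes. These means include immunoglobulin counts. By values of all mice, plasma-like cells lay below every other state for 44 of 55 genes in CD45.1+ cells (30.8% of all genes). In CD45.2+ cells of wt recipients this held for 50 of 56 (51.2%). Outside immunoglobulin genes these were 33 of 56 (14.2%) and 38 of 57 (17.7%). Light zone-like cells held the highest mean of 23 of the 55 (41.8%, against 20.3% of all genes), memory-like cells that of 15 (253 of 2498 genes) and dark zone-like cells that of 12 (1045 of 2498 genes). By group, of those given here, plasma-like cells were lowest for 6 of 7 other Arp2/3 subunits, 8 of 9 WASP and WAVE genes, 7 of 7 disassembly genes, 10 of 11 capping and bundling genes, and 10 of 11 genes of actin, its monomer binders, myosin and membrane linkers.

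Among the 55 genes at 50 CPM or more the largest spans belonged to Capg, Actg1, Cotl1, Evl, Flna and Lcp1. Capg, which caps filament ends, ran from 24.4 CPM in dark zone-like to 660 CPM in memory-like cells, a ratio of 27.0 between state means over all mice. Capg is also on the fixed memory marker list used to name clusters, so its memory-like level is not independent of that name. Actg1, cytoplasmic gamma actin, ran from 150.04 CPM in plasma-like to 3031 CPM in memory-like cells, and Cotl1, a coactosin that binds filaments, from 33.7 in plasma-like to 540 CPM in light zone-like cells. The 5 genes whose lowest mean lay in another state were Capg, Myl12b, Cyfip2, Cdc42se2 and Arpc1a, and Cdc42se2, a CDC42 effector, was the only one of the 55 highest in plasma-like cells, at 189 CPM.

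**Figure D2:**
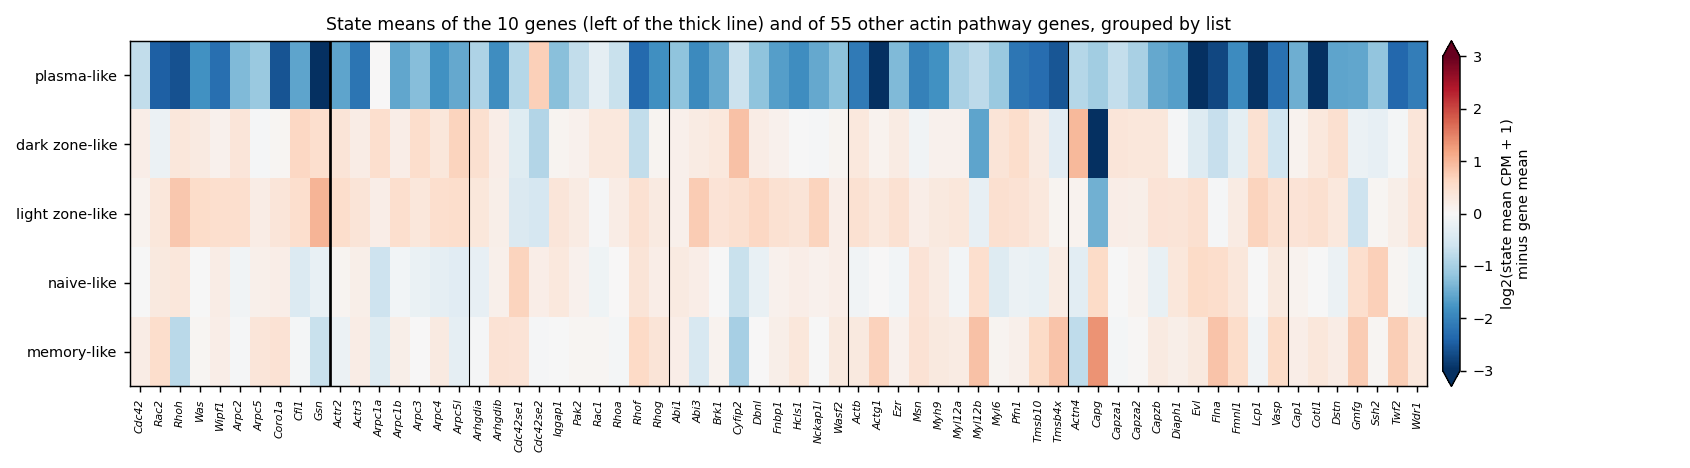
Colours show log2(state mean CPM + 1) minus the mean of that gene over the 5 states, for the 10 genes left of the thick line and 55 pathway genes at 50 CPM or more, with colours saturating at 3 either way. The plasma-like row is lowest for all 10 genes and for 50 of the 55, in CPM that include immunoglobulin genes.

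Over 52 sums of mouse, sort and state, the genes most like each of the 10 by Pearson r of log2(CPM + 10) included other actin genes. Sh3bgrl3 was nearest to Coro1a (r = 0.99) and Rac2 (0.99), Actg1 second for Coro1a (0.99) and Coro1a second for Rac2 (0.98). Arpc3, an Arp2/3 subunit, was nearest to Cfl1 (0.97), and Actr2, another, was nearest to Was (0.92) and Gsn (0.95). Irf8 (0.97) and Pou2f2 (0.96), transcription factors of B cells, were nearest to Wipf1, Lpxn (0.97) to Arpc2, Ccdc12 (0.95) and Msn (0.95) to Arpc5, and Cd72 (0.97) to Rhoh. The second matches of Was (Clta, 0.91), Arpc2 (Fth1, 0.96), Cfl1 (Ucp2, 0.96), Rhoh (Trim35, 0.96) and Gsn (Mif4gd, 0.95) are not on the actin lists. Cdc42 had the weakest match, BC035044 with r = 0.88 and Pfn1, profilin, with 0.87. Plasma-like cells had the lowest mean for 62.3% of 2498 genes, and the part of this shared drop in the r values was not tested. The sums share libraries and mice, so these are descriptions without a test.

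The second question was whether loss of DOCK8 changed the transcripts of the machinery that DOCK8 drives. Dock8 itself, a check that the allele would pass only if it lowered mRNA, stood at 97.8, 114 and 98.0 CPM in CD45.2+ germinal centre cells (dark zone-like and light zone-like together) of wt recipients and at 117, 84.5 and 69.1 CPM in those of cpm recipients. The groups overlapped (log2 difference -0.34 ± 0.211 (SE), 95% interval -0.78 to 0.09, edgeR quasi-likelihood adjusted p = 0.959). The sums behind these values held 425 to 808 cells per wt mouse and 15 to 32 per cpm mouse, so depth limits the cpm side. The mouse is the replicate in all tests. In tests of genotype or recipient group the p-values measure the spread between these mice. In the sort comparisons below, with mouse as a block, they measure the spread of the differences within mice. With 1 library per sort, none of them measures a spread between libraries.

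None of the 10 genes was called at an adjusted p of 0.05 in CD45.2+ germinal centre cells, where 4 of 9189 genes (0.0435%) were, and none had an unadjusted p under 0.05, as 450 genes did. DESeq2 also called none of the 10. Cdc42 stood at 567, 573 and 563 CPM in wt and at 563, 634 and 611 CPM in cpm recipients. The groups overlapped, and the log2 difference was -0.00 with an interval from -0.25 to 0.24. Coro1a at 1209, 1335 and 1335 against 1565, 1328 and 1291 CPM also overlapped (0.01, -0.21 to 0.23). Cfl1 came nearest to a difference, at 1622, 1610 and 1740.01 CPM in wt and 1483, 1612 and 1516 CPM in cpm recipients, with a log2 difference of -0.20 and an interval from -0.42 to 0.02 (adjusted p = 0.959 by edgeR), and 1 cpm value lay among the wt ones. Arpc2 stood at 682, 708 and 730 CPM in wt and at 786, 755 and 843 CPM in cpm recipients. These values did not overlap, but with TMM scaling the log2 difference was 0.08 with an interval from -0.15 to 0.32. Was, at 92.4, 86.3 and 85.6 against 87.9, 54.3 and 104 CPM, had the wide interval from -0.57 to 0.31, with 9 to 30 counts per cpm mouse. The differences of all 10 lay between -0.20 and 0.08, with a median of -0.05 beside -0.03 over all genes, and none of 73 pathway genes was called.

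Within dark zone-like cells none of the 10 was called (0.034% of 8832 genes were), and 1 of them, Cfl1, had an unadjusted p under 0.05. Cfl1 stood there at 1649, 1704 and 1740 CPM in wt and at 1447, 1497 and 1571 CPM in cpm recipients, so that the groups did not overlap, with a log2 difference of -0.27 (-0.52 to -0.03, adjusted p = 0.886 by edgeR). Within naive-like cells none was called (0.196% of 7648 genes), and Coro1a had an unadjusted p of 0.0291 (edgeR) with values of 1423, 1550 and 1592 CPM in wt and 1338, 1344 and 1449 CPM in cpm recipients that overlapped. Cdc42 went the other way in naive-like cells, at 525, 508 and 470 CPM in wt and 685, 744 and 571 CPM in cpm recipients without overlap, with a log2 difference of 0.24, an interval from -0.03 to 0.51 and an edgeR adjusted p of 0.705. Other hashtag rules kept more CD45.2+ cells of cpm recipients, 870 under the 3-fold rule and 915 with hashtags normalized over cells in place of 202, and so allowed further states to be compared. With hashtags over cells none of the 10 was called in light zone-like cells (17, 89 and 101 cells in cpm mice, against 0.207% of 7714 genes), where Rhoh (-0.36) and Rac2 (-0.31) had an unadjusted p under 0.05 by edgeR, or in plasma-like cells (0.0336% of 8924 genes). That light zone-like state joined a cluster of 811 CD45.2+ cells led by Mir155hg, Il4i1, Cfp and Ighd to one of 508. In the main clustering a cluster with Cfp, Il4i1 and Mir155hg among its leading genes stayed unnamed. State names under other hashtag rules thus cover different sets of cells, not the same state with more cells. In memory-like cells none was called under the 3-fold rule (0.154% of 8424 genes) or over cells (0.101% of 7932), and Was (-0.42 and -0.61) had an unadjusted p under 0.05 by edgeR in both.

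In CD45.1+ cells from these recipients, which are Dock8 wt/wt in both groups and give the background, none of the 10 was called either, against 0.0124% of 8036 genes, and their differences lay between -0.14 and 0.09. Gsn in CD45.1+ dark zone-like cells, an addition made after the data had been seen, differed between recipient groups by -0.36 with an unadjusted p of 0.0203 (adjusted 0.697, edgeR), where 0.0444% of 6759 genes were called, and in CD45.1+ naive-like cells none of the 9 genes tested was called (0% of 1932 genes).

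**Figure D3:**
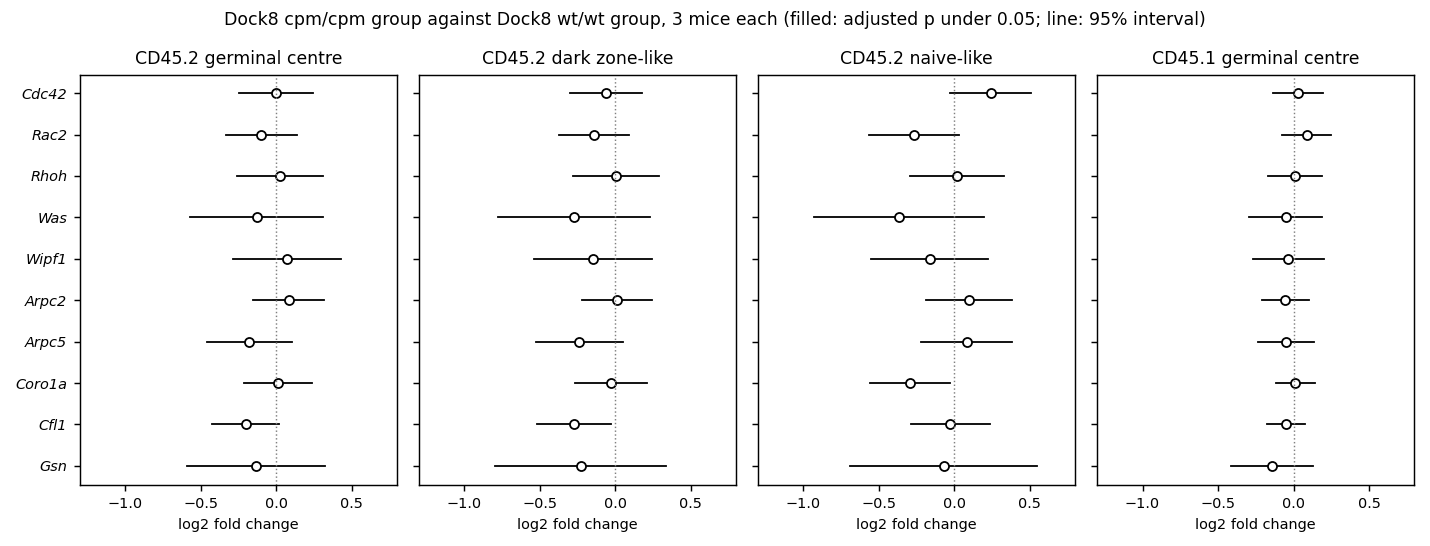
Log2 fold changes of the 10 genes in cpm over wt recipients (3 mice each) with 95% intervals, for CD45.2+ germinal centre, dark zone-like and naive-like cells and for CD45.1+ germinal centre cells. No point is filled, that is, none has an adjusted p under 0.05, and intervals are widest for Was and Gsn in CD45.2+ cells.

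The third comparison set CD45.2+ BCL2.Tg cells against CD45.1+ cells from the same recipient, with mouse as a block. In wt recipients 8 of the 10 genes were lower in CD45.2+ germinal centre cells, where 14.4% of 9787 genes were called and 6.63% were called lower. Their median log2 difference was -0.20, beside -0.00 over all genes tested. The calls rest in part on the block, since without it 3 of the 10 were called, Gsn, Rhoh and Coro1a, and DESeq2 called these with Cfl1 and Arpc2.

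Gsn, the severing protein, showed the largest difference. It stood at 130, 109 and 166 CPM in CD45.1+ and at 68.2, 78.5 and 80.9 CPM in CD45.2+ cells of wt mice 1, 2 and 3. All 3 CD45.2+ values lay below the CD45.1+ ones (log2 difference -0.83 ± 0.0934, adjusted p = 1.45e-09 by edgeR). Coro1a stood at 1637, 1700 and 1708 CPM against 1209, 1335 and 1335 CPM without overlap (-0.38 ± 0.036, adjusted p = 7.94e-12 by edgeR). Rhoh stood at 395, 443 and 449 CPM against 293, 368 and 311 CPM, also without overlap (-0.41 ± 0.0549, edgeR adjusted p = 8.72e-08).

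Was was lower by a like amount, at 103, 106 and 122 CPM in CD45.1+ against 92.4, 86.3 and 85.6 CPM in CD45.2+ cells (-0.34 ± 0.0914, edgeR adjusted p = 0.00651). Cfl1 (-0.20 ± 0.0346), Arpc5 (-0.20 ± 0.0564), Arpc2 (-0.17 ± 0.043) and Rac2 (-0.13 ± 0.0408) were called with smaller differences. The calls for Arpc5 without mouse 1 or 3 and for Was without mouse 3 were lost. The Rac2 values of both sorts overlapped, and its call was lost under DESeq2, without the filter on low counts, at clustering resolution 1.5, with hashtags normalized over cells and without mouse 1 or mouse 2. Cdc42 (-0.04, -0.13 to 0.06) and Wipf1 (-0.04, -0.20 to 0.11) were not called.

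The mix of states moved with the sort, since light zone-like cells made up 47.7%, 70.4% and 48.9% of CD45.1+ and 19.3%, 48.5% and 20.5% of CD45.2+ germinal centre cells in wt mice 1, 2 and 3. The comparison was therefore repeated within states, an addition made after the cell numbers had been seen. In dark zone-like cells 5 genes were lower in CD45.2+ cells, Gsn (-0.86), Was (-0.35), Coro1a (-0.32), Rhoh (-0.31) and Cfl1 (-0.21), where 6.63% of 9391 genes were called and 2.96% were called lower. The count was 3 without mouse 1 and 3 without mouse 3, and the call for Was was lost whichever mouse was left out. Within single dark zone-like clusters 4 of the 10 were called in cluster 3 (Coro1a, Gsn, Rhoh and Was, against 3.06% of genes), 1 in cluster 4 (Gsn, 3.15%) and 2 in cluster 11 (Coro1a and Cfl1, 1.47%). Marker lists of other classes moved with the sort in dark zone-like cells without overlap. From CD45.1+ cells (6 mice) to CD45.2+ cells of wt recipients the 10 plasma markers went from sums of 1521-1820 CPM to 2181-2729 CPM, the 11 naive markers from 725-865 to 1022-1150 CPM and the 13 memory markers from 356-505 to 629.96-749 CPM, with every marker of these lists detected. Their part in the result was not tested. Rac2 differed by -0.02 (-0.12 to 0.08) in dark zone-like and by 0.00 (-0.13 to 0.14) in light zone-like cells.

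In light zone-like cells Coro1a (-0.28 ± 0.0584, edgeR adjusted p = 0.0014) and Cfl1 (-0.23 ± 0.0611, edgeR adjusted p = 0.0154) were lower, 2 of 10 against 5.88% of 6697 genes called and 2.08% called lower. The count was 0 without the block or without mouse 2 and 1 without mouse 1. The naive markers summed there to 1363-1735 CPM in CD45.1+ (6 mice) and 2377-3626 CPM in CD45.2+ cells of wt recipients, and the memory markers to 665-954 and 1570-2543 CPM. In CD45.2+ cells of cluster 7 the naive markers summed to 3338-4054 CPM and the 16 light zone markers to 2410-3471 CPM. The part of these markers in the result was not tested. In cluster 8 alone, which both sorts filled, Coro1a (-0.29) and Rhoh (-0.37) were called against 2.75% of genes (1.28% lower), and Cfl1 differed by -0.01 (-0.12 to 0.11). In naive-like and memory-like cells none of the 10 was called, against 1.86% and 2.77% of genes, and 2 of the 10 in each had an unadjusted p under 0.05 by edgeR, as 884 of 8169 and 864 of 7247 genes did, Coro1a with Rhoh (-0.18 and -0.25) in naive-like and with Cfl1 (-0.13 and -0.18) in memory-like cells. DESeq2 called none there.

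Of 74 pathway genes 30 were called in germinal centre cells of wt recipients, 9 higher and 21 lower in CD45.2+ cells, with a median of -0.07. Rdx (0.75), Capg (0.57) and Nck1 (0.40) were higher, a membrane linker, a capping protein and an adaptor. Vasp (-0.57), Abi3 (-0.49), Cotl1 (-0.46), Rhof (-0.44), Nckap1l (-0.42), Twf2 (-0.35) and Arpc1b (-0.35) were lower. Of 7 other Arp2/3 subunits 3 were lower and none higher, and of 16 WASP and WAVE genes 5 were lower and 1 higher.

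In cpm recipients the same comparison rested on 15 to 32 CD45.2+ cells per mouse, and 1 of the 10 was called, against 1.58% of 7132 genes, 0.813% of them lower. Gsn stood at 134, 110 and 126 CPM in CD45.1+ against 93.8, 66.4 and 65.6 CPM in CD45.2+ cells without overlap (-0.82 ± 0.229, edgeR adjusted p = 0.0447), a call lost whichever of the 3 mice was left out. Coro1a (-0.37), Cfl1 (-0.34), Rhoh (-0.38) and Rac2 (-0.30) had unadjusted p-values under 0.05 by edgeR, and the number of the 10 called was 5 under the 3-fold hashtag rule, which keeps more cells, and 0 without the block. The number of all genes called also changed with the setting, so these counts cannot be set against the 1.58%. The sort difference of cpm recipients did not differ from that of wt recipients for any of the 10 beyond the spread between mice (0 called, 0.0115% of 8726 genes, and 0 of the 10 at an unadjusted p under 0.05). The intervals of these interactions ran from -0.20 to 0.20 for Coro1a and from -0.51 to 0.50 for Gsn.

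**Figure D4:**
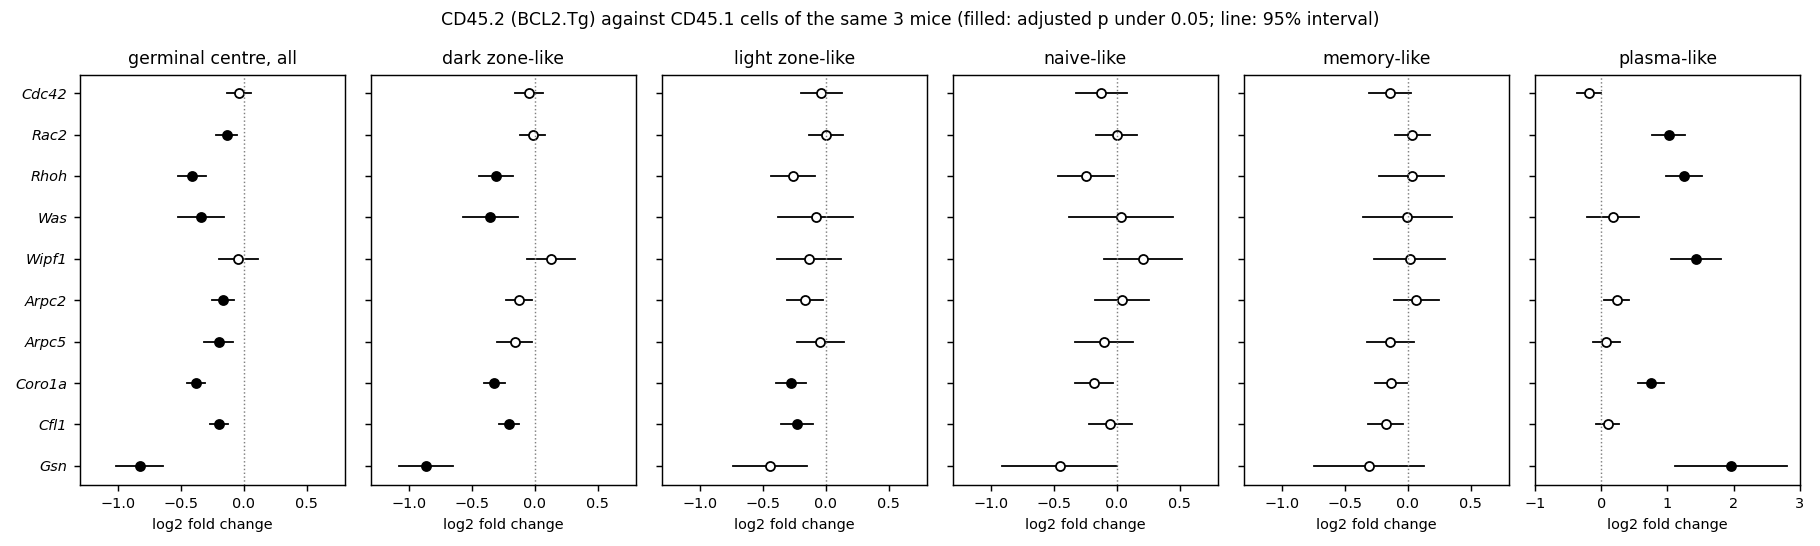
Log2 fold changes of the 10 genes in CD45.2+ over CD45.1+ cells of the 3 wt recipients with 95% intervals, for all germinal centre cells and for 5 states, filled where the adjusted p is under 0.05. Filled points lie left of 0 in the germinal centre panels and right of 0 in plasma-like cells.

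Plasma-like cells went the other way. There 5 of the 10 genes were higher in CD45.2+ than in CD45.1+ cells of wt recipients, Gsn, Wipf1, Rhoh, Rac2 and Coro1a, where 23% of 9125 genes were called and 12% were called higher. Gsn passed the filter on low counts only through its CD45.2+ values, so its call adds no support. Rac2 stood at 98.8, 108 and 114 CPM in CD45.1+ and at 296, 266 and 198 CPM in CD45.2+ plasma-like cells of mice 1, 2 and 3 (1.02 ± 0.118, edgeR adjusted p = 2.35e-06). Rhoh stood at 37.8, 31.6 and 21.1 against 88.2, 89.3 and 55.7 CPM (1.25 ± 0.133, edgeR adjusted p = 7.25e-07). Every CD45.2+ value lay above every CD45.1+ value for both GTPases.

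Wipf1, the WASP partner, went from 18.9, 12.8 and 10.1 to 42.2, 45.6 and 30.6 CPM (1.44 ± 0.183, edgeR adjusted p = 7.49e-06), and Coro1a from 184, 181 and 164 to 375, 353 and 274 CPM (0.76 ± 0.0942, edgeR adjusted p = 5.58e-06). Neither overlapped. Gsn gave 1, 5 and 5 counts in CD45.1+ and 43, 52 and 34 counts in CD45.2+ cells of these mice (1.96 ± 0.405, edgeR adjusted p = 0.00116), and DESeq2 did not call it. Cdc42 (-0.19, -0.37 to -0.00), Was (0.18, -0.22 to 0.57), Cfl1 (0.10, -0.08 to 0.28), Arpc5 (0.08, -0.13 to 0.29) and Arpc2 (0.23, 0.05 to 0.42) were not called.

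The scaling mattered for the size of these differences. Without TMM factors the median of all genes moved from 0.03 to 0.17, the calls over all genes went from 1091 higher and 1006 lower to 1573 and 566, and 7 of the 10 genes were called, all in the same direction. The sorts also filled different plasma-like clusters, cluster 2 with 884 CD45.2+ and 85 CD45.1+ cells, cluster 6 with 442 and 465, and cluster 10 with 139 and 149. In cluster 6 alone Wipf1 (1.22), Rhoh (0.95), Rac2 (0.75) and Coro1a (0.39) were called, 4 of 9 genes tested against 9.68% of 6262 called and 5.27% called higher. In cluster 10 alone Rhoh (1.28), Rac2 (0.94) and Coro1a (0.62) were called, 3 of 9 against 4.74% of 4794 called and 3.61% called higher. Gsn was too sparse to be tested in either.

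**Figure D5:**
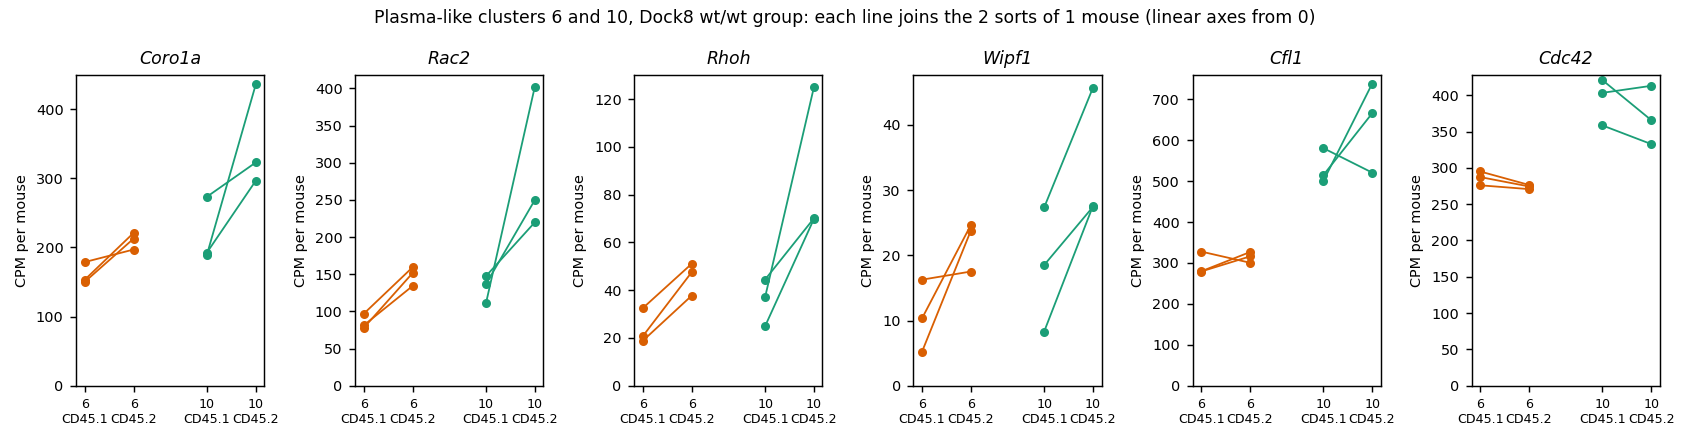
CPM of 6 of the genes in plasma-like clusters 6 and 10 of the 3 wt recipients, on linear axes from 0, with lines joining both sorts of 1 mouse. All lines rise from CD45.1+ to CD45.2+ for Coro1a, Rac2, Rhoh and Wipf1, while those of Cfl1 and Cdc42 run in both directions.

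Some marker lists of other cell classes moved with the plasma-like difference. In cluster 6 the 11 naive markers summed to between 147 and 187 CPM in CD45.1+ cells (6 mice) and between 411 and 444 CPM in CD45.2+ cells of wt recipients, with all 11 detected in both. The 18 dark zone markers summed to between 268 and 548 and between 564 and 622 CPM, and the 16 light zone markers to between 191 and 402 and between 359 and 527 CPM, with overlap. The 13 memory markers, at 496 to 826 and 575 to 690 CPM, also overlapped. The 10 T cell markers summed to between 0 and 5.42 CPM, with Cd3d, Cd3g, Trbc2 and Il7r at 0, and to between 5.84 and 17.1 CPM, with Trbc1 at 0. Their part in the result was not tested.

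The pathway list moved in the same direction in plasma-like cells, with 29 of 73 genes called higher and 1 lower. Evl (4.41), Cotl1 (2.05), Pstpip1 (2.01), Actg1 (1.75), Lcp1 (1.51), Rhog (1.16), Wdr1 (1.15), Abi3 (1.12), Fmnl1 (1.10) and Tmsb4x (0.96) led the higher genes. Evl binds filament ends, Lcp1 bundles filaments and Tmsb4x holds free actin monomers. The median over the list was 0.33, beside 0.03 over all genes.

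The sort difference of plasma-like cells was then compared with that of dark zone-like cells of the same mice, an addition made after the values within states had been seen. It was higher for 5 of the 10 genes, against 15.2% of 10061 genes called and 7.13% called higher. The log2 differences between both sort differences were 2.78 ± 0.383 for Gsn, 1.51 ± 0.154 for Rhoh, 1.25 ± 0.216 for Wipf1, 1.02 ± 0.112 for Coro1a and 0.97 ± 0.132 for Rac2. The Gsn value rests on few counts in CD45.1+ plasma-like cells. That of Cdc42 was -0.19 with an interval from -0.41 to 0.03. Without TMM factors 9 of the 10 were called, the median of all genes moved from -0.01 to 0.19, and the calls over all genes went from 717 higher and 808 lower to 1137 and 370.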

How the data were processed

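Single-cell mRNA and hashtag libraries of CD45.1+ and CD45.2+ cells were used. The deposited matrices hold raw UMI counts per gene or hashtag and barcode, which the authors made with Cell Ranger 5.0.1 against its mm10 transcriptome (GRCm38), calling cells with the EmptyDrops method. The authors then used Seurat 4.0 or higher. No column of per-sample values was left unused (0 columns), and the table that ties hashtags to mice was read as deposited. The 10 genes, the gene lists and the comparisons were chosen with earlier results of these data known.

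Barcodes present in both libraries of a sort (14617 CD45.2+ and 4857 CD45.1+) were kept at under 10% mitochondrial counts and between 100 and 5500 genes (14439 and 4753 cells), and hashtags were assigned with HTODemux (Seurat 5.3.0, quantile 0.99). Only single-hashtag cells were used. Scrublet, run in addition, marked 1 of 14439 and 177 of 4753 cells, so that it did not work for the CD45.2+ library. Median depth per mouse and sort was 4236 to 7438 UMIs per cell. Cells of both sorts were clustered together in scanpy 1.11.5 (2000 variable genes, 30 principal components, 15 neighbours, Leiden resolution 1.0). A cluster took a state's name when at least 3 of the fixed markers stood among its top 50 genes by fold, with a pseudocount of 10 CPM, among genes in at least 0.1 of its cells, and no other class led its top 10.

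Counts were summed per mouse, sort and state for sums of at least 10 cells. Groups and sorts were compared with edgeR 4.0.16 (TMM, quasi-likelihood test, R 4.3.3) over all genes that passed its filter on low counts, with Benjamini-Hochberg adjustment and a threshold of 0.05, and DESeq2 1.42.0 was the alternative tool. All 10 genes passed that filter in germinal centre cells. Sorts were compared with mouse as a block, because both sorts of a hashtag come from the same animal. Genotypes were compared without one, since their mice are different animals. The scripts were tested on simulated data. States are clusters of the same cells and were described without tests. Named pathway genes are the 10 called genes of largest change per comparison and the 6 of largest span across states. The count for 1 group of the pathway list is not reported here. Alternatives covered tool, scaling, filters, hashtag rules, clustering, block and left-out mice. Python 3.11.15, pandas 2.3.3, scipy 1.17.1 and matplotlib 3.10.9 were also used.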

Additional observations from a re-analysis of the deposited data

Results flagged for a closer look

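Each of 50 sets of 6 mice (10 genes in 5 states of the CD45.1+ sort) was examined for a mouse far from the others, which chance gives in about 1 of 20 sets, and 3 were found. Cdc42 stood at 358 CPM in plasma-like cells of cpm recipient mouse 2, the highest of 6. Coro1a stood at 2073 CPM in light zone-like cells of the same mouse, also the highest. Rac2 stood at 930.3 CPM in dark zone-like cells of cpm recipient mouse 1.

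In wt recipients the difference from CD45.1+ to CD45.2+ cells was not the same in plasma-like as in dark zone-like cells for 5 of the 10 genes by a test of that difference itself. On the log2 scale it was 2.78 for Gsn, 1.51 for Rhoh, 1.25 for Wipf1, 1.02 for Coro1a and 0.97 for Rac2, each positive and with an edgeR adjusted p under the threshold. The Gsn value again rests on few plasma-like counts in CD45.1+ cells.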

How the results depend on the processing

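No called value of the 10 genes changed sign under any alternative run. Without the replicate block 3 of the 10 were called in germinal centre cells of wt recipients in place of 8 (485 of all genes), 0 in place of 1 in cpm recipients and 0 in place of 2 in light zone-like cells, and it moved no other count of the 10 genes by over 1.5 times. DESeq2 called 5 in wt recipients (470 genes), 0 in cpm recipients (35 genes) and 1 in light zone-like cells. Genes called for genotype were 4 in germinal centre cells (4 to 16 over alternatives with all mice), 3 in dark zone-like (2 to 13) and 15 in naive-like cells (9 to 52), and for recipient group in CD45.1+ cells 1 (0 to 8) and 3 in dark zone-like cells (1 to 9). For the sort they were 1407 in wt recipients (470 to 1734), 113 in cpm recipients (35 to 935), 1 for their difference (1 to 10), 623 in dark zone-like (170 to 613), 394 in light zone-like (91 to 748), 152 in naive-like (34 to 203), 201 in memory-like (72 to 466), 2097 in plasma-like cells (809 to 3125) and 1525 for plasma-like against dark zone-like cells (706 to 1507).

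In cpm recipients the count was 0 without TMM and at 5% mitochondrial counts with at least 500 genes, 3 without the filter on low counts, 5 under the 3-fold hashtag rule, and 4 at resolution 0.6, at resolution 1.5 and with pathway genes in the clustering. In dark zone-like cells it was 3 with hashtags normalized over cells, 1 in cluster 4 alone and 2 in cluster 11 alone. In light zone-like cells it was 1 under the 3-fold rule and without the highest Scrublet scores, and 4 at resolution 1.5 and with pathway genes in the clustering. In naive-like cells it was 1 at resolution 1.5. In memory-like cells it was 3 under the 3-fold rule, 1 over cells, 2 at resolution 0.6 and 1 at resolution 1.5. In plasma-like cells it was 8 over cells and 3 in cluster 10 alone, and the plasma-like against dark zone-like difference gave 9 without TMM. The number of all genes called also moved with these settings, within the ranges above, so these counts cannot be set against the main shares. The causes were not tested.

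Scaling moved the median of all genes by over 0.1 with DESeq2 in cpm recipients (to 0.12), in the sort difference between recipient groups (to 0.27) and in naive-like cells (to -0.19), and without TMM in plasma-like cells and their difference from dark zone-like cells. It also moved the split of higher and lower calls in cpm recipients (55 and 58, without TMM 118 and 55, DESeq2 9 and 26), in naive-like cells (73 and 79, without TMM 134 and 69, DESeq2 27 and 84) and in memory-like cells (96 and 105, DESeq2 26 and 46).

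Leaving out 1 mouse gave 6 to 7 of the 10 for the sort in wt recipients, 0 to 1 in cpm recipients, 3 to 4 in dark zone-like, 0 to 2 in light zone-like and 5 to 5 in plasma-like cells and in the plasma-like against dark zone-like difference, and 0 to 0 in naive-like and memory-like cells, for each genotype or recipient group comparison and for the difference between groups. For the levels it gave 9 to 10 genes lowest in plasma-like cells in CD45.1+ and 10 to 10 in CD45.2+ cells, 3 to 4 and 7 to 8 higher in light zone-like than dark zone-like cells, 0 to 1 and 0 to 1 lower, and 2 to 3 and 3 to 3 with naive-like and memory-like cells below both germinal centre states. These level counts ask for values without overlap, and with fewer mice they can only stay or rise. They are therefore no check of the levels.

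Genes with naive-like and memory-like cells below both germinal centre states in CD45.1+ cells were 1 outside mitochondrial and ribosomal protein genes and 1 with pathway genes in the clustering, and in CD45.2+ cells 1 over cells and 1 with pathway genes in the clustering. Light zone-like values above dark zone-like in CD45.2+ cells were 2 at resolution 0.6 and 3 with pathway genes in the clustering. Light zone-like values below dark zone-like were 1 under the 3-fold rule and without the highest Scrublet scores, 3 over cells, and 2 at resolution 0.6, at resolution 1.5 and with pathway genes in the clustering. Of 100 means, 95 moved by over 1 SD outside mitochondrial and ribosomal protein genes, 53 over cells and 34 under the 3-fold rule.

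Depth limits the genotype comparison most, with 15 to 32 germinal centre cells per cpm mouse. Not run, because too few cells remained, were the genotype within states at 20 cells, naive-like sort values under the 3-fold and over-cell hashtag rules, and plasma-like cluster 2 between sorts.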
